A study of Homo sapiens with 8 samples.

Results

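The 10 genes described here mark the identity of the intestinal epithelium and were followed through 4 groups of HCT116 libraries: CDX1, CDX2, HNF4A, GATA6, KLF4, KLF5, MUC13, KRT20, LGALS4 and VIL1. They were taken by gene symbol, as the rows of the count table whose Ensembl ID carries that symbol, and make up 10 of 40295 gene IDs. Of these, 7 held enough counts to be tested, among 16519 genes tested in all. CDX1, VIL1 and LGALS4 did not and are given as counts. HCT116 is a human colorectal cancer cell line, and the tissue label reads colon. The libraries came from wild-type HCT116 cells (WT) and from an HCT116 derivative made by CRISPR-Cas9 knock-in, in which MED12 carries the E33Q change (KI). MED12 is a subunit of the kinase module of Mediator and activates the kinase CDK8. Each line was left untreated (0 h) or given interferon-gamma (IFN-γ) at 5 ng/ml for 24 h, with 2 biological replicates in each of the 4 groups.

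The knock-in is named as a single line, so the E33Q change and other differences between the lines cannot be told apart. Untreated cells carry the label 0 h and treated cells 24 h, so IFN-γ and a further day in culture cannot be told apart either. In such bulk RNA, fewer cells that express a gene and less RNA per cell also cannot be told apart.

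Identity of the intestinal lining is held by a small network of transcription factors. CDX1 and CDX2 are the caudal-type homeobox factors that specify intestine, HNF4A is a nuclear receptor that drives enterocyte genes, and GATA6 is a zinc-finger factor of endoderm and crypt. KLF4 and KLF5 are Krüppel-like factors that divide the epithelium between them, KLF4 in the differentiated, non-dividing cells and KLF5 in the dividing crypt. The other 4 genes are products of differentiated cells: MUC13 is a transmembrane mucin, KRT20 a keratin filament protein of mature enterocytes, LGALS4 a galactose-binding lectin, and VIL1 the actin-bundling villin of the microvillus.

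The promoters of HNF4A, MUC13 and KLF4 are shown because these 3 genes differed between the lines without treatment. Each stretch is the 250 bases before the start in RefSeq, written 5′ to 3′ along the gene. Capitals mark matches to short motifs searched on both strands.
HNF4A (GRCh38.p14, chr20:44355449-44355698, plus strand): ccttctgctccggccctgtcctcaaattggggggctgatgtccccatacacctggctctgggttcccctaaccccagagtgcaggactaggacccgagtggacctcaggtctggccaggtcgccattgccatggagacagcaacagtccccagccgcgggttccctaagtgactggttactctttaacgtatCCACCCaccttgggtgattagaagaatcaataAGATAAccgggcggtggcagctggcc
MUC13 (GRCh38.p14, chr3:124934752-124935001, minus strand): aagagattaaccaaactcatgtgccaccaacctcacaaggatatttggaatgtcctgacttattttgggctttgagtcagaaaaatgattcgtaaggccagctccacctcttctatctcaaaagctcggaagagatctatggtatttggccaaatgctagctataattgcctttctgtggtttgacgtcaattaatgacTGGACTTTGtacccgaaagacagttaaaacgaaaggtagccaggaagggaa
KLF4 (GRCh38.p14, chr9:107489770-107490019, minus strand): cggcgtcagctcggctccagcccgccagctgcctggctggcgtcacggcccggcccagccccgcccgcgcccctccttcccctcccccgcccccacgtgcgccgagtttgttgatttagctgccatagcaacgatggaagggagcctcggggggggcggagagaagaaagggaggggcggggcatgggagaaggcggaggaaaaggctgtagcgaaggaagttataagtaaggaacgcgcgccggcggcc
The capitals in HNF4A are a CACCC box (CCACCC, 58 bases before the start) and a GATA motif (AGATAA, 26 bases before it). Those in MUC13 are the reverse complement of an HNF4 motif (CAAAGTNCA), 51 bases before the start. No capitals appear in KLF4, where none of the searched letters occurred. The other motifs searched were those of CDX factors (TTTATNG), of HNF1, of STAT dimers (GAS, TTCNNNGAA) and of interferon regulatory factors (ISRE). Windows of 300 bases, from 250 before to 50 after the start, were at hand for 8 of the 10 genes, with none for CDX1 or VIL1. The HNF4 motif occurred in 1 of these 8 and in 1.1% of 35116 RefSeq promoters of the same length. A GATA motif occurred in 2 of 8 (HNF4A and CDX2) and 10.3% of promoters, a CDX motif in 2 of 8 (CDX2 and KLF5) and 9.73%, and a CACCC box in 2 of 8 (HNF4A and GATA6) and 34.3%. A GAS occurred in CDX2 alone of the 8 and in 7.66% of promoters. ISRE and HNF1 motifs, found in 3.57% and 0.048% of promoters, occurred in none of the 8. These matches describe letters, and counts per gene do not say from which start a transcript came. The HNF4A window lies before the upstream of its start sites. The MUC13 and KLF4 windows lie inside the spans of these genes in GENCODE (chr3:124905442-124953819 and chr9:107484852-107490482). They therefore precede a start other than the outermost one of those spans.

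The libraries summed to between 20901909 and 28045842 estimated counts. Simple epithelial markers were abundant throughout, with EPCAM at 114.8 to 216.7 and KRT8 at 1440 to 3612 CPM (a gene's share of the library's counts, with libraries scaled by TMM, trimmed means of M-values). Markers more particular to enterocytes were uneven. The 45 brush border and enterocyte genes listed summed to 1973 to 2518 CPM, with PLS1 at 54.07 to 218.1 CPM, but 15 to 23 of them were at 0 in a library. CDH17, an intestinal cadherin, lay between 0.19 and 1.04 CPM, and CDX1, VIL1 and LGALS4 were at or near 0. Transcripts of plasma cells, the antibody-secreting cells that a culture of HCT116 should lack, appeared in 4 libraries. JCHAIN and immunoglobulin genes summed to 314.3 and 345.7 CPM in untreated WT, to 303.4 CPM in replicate 2 of untreated KI and to 238.3 CPM in replicate 2 of treated KI, against 0.0557 to 0.33 CPM in the other 4. Leukocyte markers (18 genes) followed, at 28.1 to 35.4 CPM in those 4 libraries and 4.88 to 9.47 CPM in the rest. ERCC spike-ins took 0.11 to 0.141% of the counts without treatment and 0.228 to 0.271% with IFN-γ. The mean GC content of counted transcripts was 45.23 to 46.63% without and 47.93 to 48.12% with IFN-γ.

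**Figure D1:**
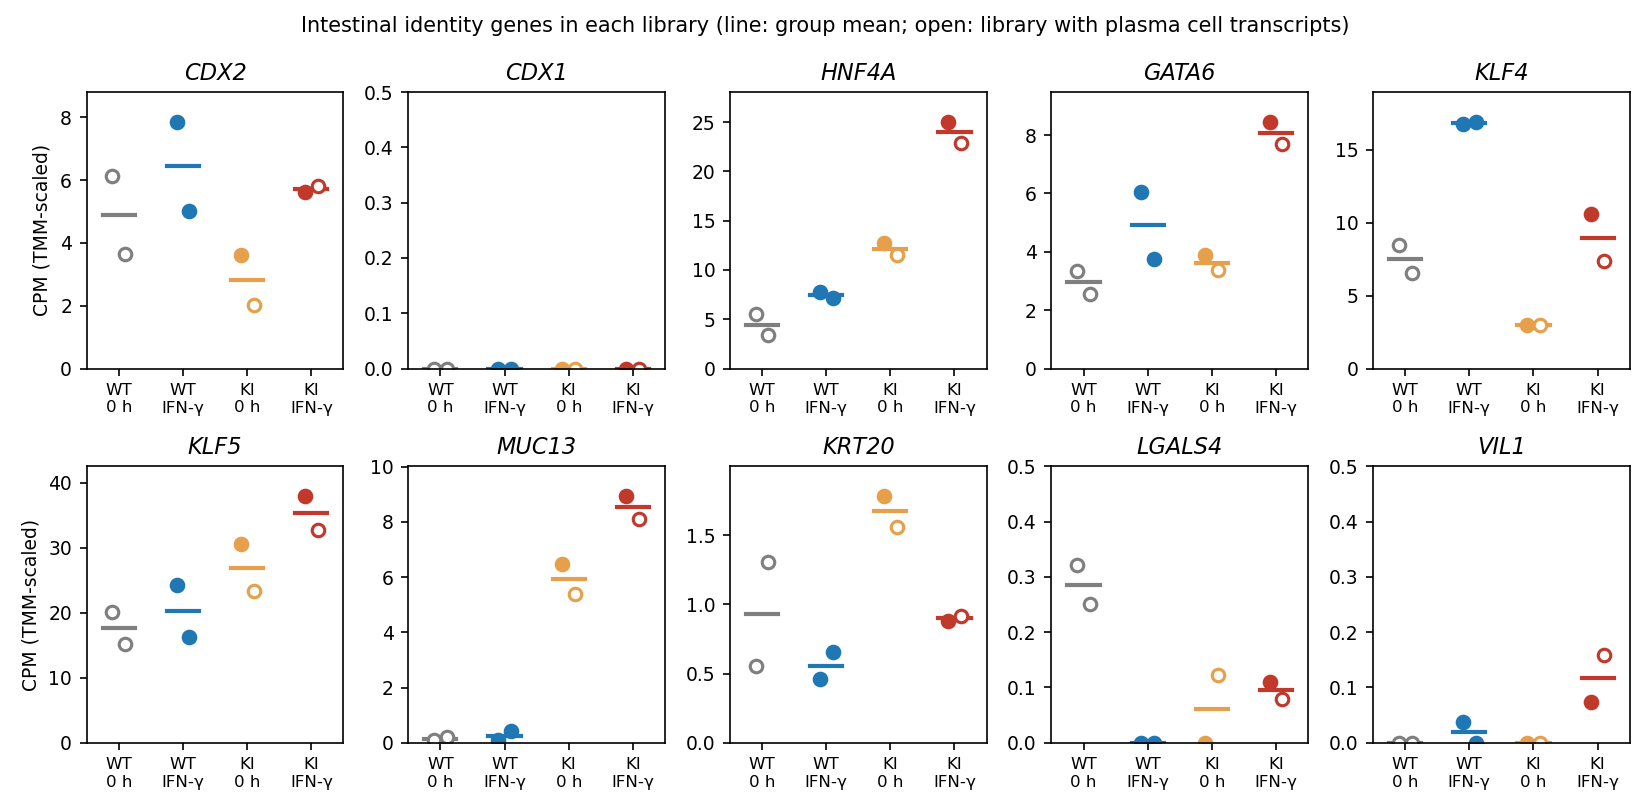
Level of each of the 10 genes in the 8 libraries (y axis: TMM-scaled CPM, a separate linear scale for each gene, starting at 0; x axis: WT and KI cells, untreated or with IFN-γ; points: libraries; lines: means of 2; open points: libraries with plasma cell transcripts). MUC13 was at 0.0919 to 0.408 CPM in WT and 5.38 to 8.94 CPM in KI libraries, and CDX1 was at 0 in all 8.

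HNF4A and MUC13 were higher in knock-in cells both without and with IFN-γ, and KLF4 was lower in untreated knock-in cells. With TMM scaling KLF4 and HNF4A rose with IFN-γ in both lines, and GATA6 and CDX2 rose in knock-in cells, although the responses of the lines were not shown to differ. Of these rises only that of KLF4 in knock-in cells also passed both with ERCC scaling and with the GC and length trend removed. That of KLF4 in WT passed with the trend removed, and the rises of HNF4A, GATA6 and CDX2 passed with neither. KLF5, KRT20 and the response of MUC13 were not called. Calls are those of edgeR's quasi-likelihood test at an adjusted p of 0.05.

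HNF4A (chr20:44355700-44434596, plus strand, GRCh38, here and for the genes below) had its lowest level in untreated WT libraries, at 5.52 and 3.36 CPM. Treated WT libraries held 7.78 and 7.18 CPM, untreated KI libraries 12.8 and 11.5 CPM, and treated KI libraries 25.1 and 22.9 CPM. All 4 KI libraries lay above all 4 WT libraries, and within each line both treated libraries lay above both untreated ones. Against WT, the KI level was 2.73-fold higher without treatment (log2 fold change 1.45 ± 0.241 SE, adjusted p = 0.00883, edgeR) and 3.2-fold higher with IFN-γ (1.68 ± 0.233, adjusted p = 0.00498). The rise with IFN-γ was 0.98 ± 0.228 on the log2 scale in KI (adjusted p = 0.00536) and 0.75 ± 0.24 in WT (adjusted p = 0.0351). With the GC and length trend removed these rises stood at 0.17 in KI (adjusted p = 0.509) and 0.19 in WT (adjusted p = 0.501), and with ERCC scaling at 0.45 (adjusted p = 0.337) and -0.08 (adjusted p = 0.885), none of them called. The WT rise was also lost without WT_0h replicate 2 (0.44, adjusted p = 0.134), without either WT_24h replicate (0.69 and 0.81, adjusted p = 0.144 and 0.0896) without either KI_24h replicate (adjusted p = 0.0645 and 0.0638) and with only the WT groups fitted (0.75, adjusted p = 0.124). The line difference with IFN-γ was lost without WT_24h replicate 2 (1.62, adjusted p = 0.0729) or KI_24h replicate 1 (1.61, adjusted p = 0.0509).

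MUC13 (chr3:124905442-124953819, minus strand) was close to silent in WT cells. The estimated counts behind it were 2 and 4 in untreated WT, 3 and 10 in treated WT, 116 and 131 in untreated KI and 244 and 203 in treated KI libraries. As levels these were 0.0919 and 0.2 CPM, 0.114 and 0.408 CPM, 6.46 and 5.38 CPM, and 8.94 and 8.1 CPM in the same order. The lines did not overlap in either condition, and MUC13 passed the count filter only through its KI libraries. The fitted difference was 39.5-fold without treatment (log2 5.30 ± 0.57, adjusted p = 0.00111, edgeR) and 32.3-fold with IFN-γ (5.01 ± 0.522, adjusted p = 0.00109). Since only 6 and 13 counts lie behind the WT groups, its size is loosely set: ratios of summed counts were 40.6 (95% exact interval 18.4 to 112) and 33.3 (19.3 to 63), intervals that cover counting error only. With IFN-γ, the log2 change was 0.53 ± 0.407 in KI (adjusted p = 0.318) and 0.82 ± 0.679 in WT (adjusted p = 0.376).

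Both line differences of MUC13 kept the call under each alternative tried, 19 for the untreated and 20 for the treated cells, with log2 values from 4.85 to 5.93 and from 4.37 to 6.15. For HNF4A the difference kept the call in 18 of 19 alternatives without treatment (log2 1.08 to 1.85) and in 17 of 20 with IFN-γ (1.61 to 1.76). The HNF4 motif in the MUC13 stretch printed above is a match of letters, and binding was not measured in these libraries.

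KLF4 (chr9:107484852-107490482, minus strand) moved the opposite way between the lines. Untreated WT libraries held 8.5 and 6.56 CPM and untreated KI libraries 2.95 CPM each. Treated WT libraries held 16.7 and 16.9 CPM and treated KI libraries 10.6 and 7.38 CPM. KI lay below WT in each condition, and in each line treated libraries lay above untreated ones. Without treatment the KI level was 2.55-fold lower (log2 -1.35 ± 0.248, adjusted p = 0.0138, edgeR). That call was lost without WT_0h replicate 1 (-1.15, adjusted p = 0.0503), KI_0h replicate 1 (-1.35, adjusted p = 0.0654) or KI_0h replicate 2 (-1.35, adjusted p = 0.0881), and with only the groups compared (-1.33, adjusted p = 0.0585). With IFN-γ the difference was -0.91 ± 0.23 (adjusted p = 0.0777), which DESeq2 (-0.91, adjusted p = 0.0426) and limma-voom (-0.92, adjusted p = 0.037) put past the threshold.

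With IFN-γ KLF4 rose 2.23-fold in WT (log2 1.16 ± 0.233, adjusted p = 0.00453) and 3.04-fold in KI (1.60 ± 0.246, adjusted p = 0.000658). In KI this was the sole member response that held under all 20 alternatives, with log2 values from 1.06 to 1.84. The levels in treated KI libraries overlapped those in untreated WT libraries.

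KLF5 (chr13:73054976-73077542, plus strand), the crypt counterpart of KLF4, was not called in any comparison, although other settings called it between the lines. Its level was 20.04 and 15.2 CPM in untreated WT, 24.3 and 16.3 CPM in treated WT, 30.5 and 23.3 CPM in untreated KI and 37.95 and 32.7 CPM in treated KI libraries. KI libraries lay above WT libraries without treatment and with IFN-γ, while the 2 WT groups overlapped. The line difference was 0.61 ± 0.237 on the log2 scale without treatment (adjusted p = 0.139) and 0.80 ± 0.234 with IFN-γ (adjusted p = 0.124). The treated difference passed in DESeq2 (0.79, adjusted p = 0.0375) and with only the groups compared (0.81, adjusted p = 0.0298). Both passed with no filter (untreated 0.61, adjusted p = 0.0283, and treated 0.80, adjusted p = 0.00295) and with a replicate block (0.61, adjusted p = 0.0383, and 0.82, adjusted p = 0.0236). Its response was 0.20 ± 0.237 in WT (adjusted p = 0.539) and 0.39 ± 0.233 in KI (adjusted p = 0.194).

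GATA6 (chr18:22169443-22202528, plus strand) held 3.36 and 2.56 CPM in untreated WT, 6.07 and 3.76 CPM in treated WT, 3.9 and 3.36 CPM in untreated KI and 8.46 and 7.7 CPM in treated KI libraries. Treated libraries lay above untreated ones in each line, with the wider gap in KI. The change was 1.15 ± 0.31 on the log2 scale in KI (adjusted p = 0.0112) and 0.73 ± 0.313 in WT (adjusted p = 0.0939). The KI call held in 15 of 20 alternatives. It was lost with the GC and length trend removed (0.42, adjusted p = 0.301), with ERCC scaling (0.62, adjusted p = 0.28), without KI_0h replicate 2 (1.05, adjusted p = 0.0726), without KI_24h replicate 1 (1.08, adjusted p = 0.0685) and in the libraries free of plasma cell transcripts (1.09, adjusted p = 0.0742). Line differences were 0.29 ± 0.316 (adjusted p = 0.602) and 0.72 ± 0.304 (adjusted p = 0.299), not called. Exons of GATA6 overlap those of the antisense genes GATA6-AS1 and AC091588.3. Whether the counting used strand is not given in the sources used here, so reads of these genes may be mixed.

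CDX2 (chr13:27962137-27971139, minus strand) had the largest standard errors among the tested transcription factors. It held 6.11 and 3.66 CPM in untreated WT, 7.86 and 5.02 CPM in treated WT, 3.62 and 2.01 CPM in untreated KI and 5.6 and 5.82 CPM in treated KI libraries. Treated and untreated libraries overlapped in WT and not in KI. The KI change of 1.03 ± 0.388 on the log2 scale only just passed (adjusted p = 0.0489) and was lost in 10 of 20 alternatives, among them the fit with the GC and length trend removed (0.20, adjusted p = 0.696), ERCC scaling (0.50, adjusted p = 0.477), DESeq2 (0.96, adjusted p = 0.0613) and the fit without KI_0h replicate 2 (0.65, adjusted p = 0.278). The WT change was 0.40 ± 0.377 (adjusted p = 0.441), and the line differences were -0.81 ± 0.39 without treatment (adjusted p = 0.219) and -0.17 ± 0.374 with IFN-γ (adjusted p = 0.889). Its paralog CDX1 (chr5:150166795-150184558, plus strand) had no count in any library, where the limit that a count of 0 allows, 3 counts, amounts to 0.11 to 0.167 CPM.

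KRT20 (chr17:40875941-40885227, minus strand) was low everywhere. Counts of 11.5 and 25.5 in untreated WT, 12 and 16 in treated WT, 32.5 and 37.5 in untreated KI and 23.5 and 23 in treated KI libraries gave levels from 0.458 to 1.78 CPM. Counts were highest in untreated KI cells, and the 2 WT groups overlapped. Log2 changes with IFN-γ were -0.73 ± 0.631 in WT (adjusted p = 0.394) and -0.89 ± 0.609 in KI (adjusted p = 0.259), and line differences were 0.85 ± 0.614 (adjusted p = 0.415) and 0.69 ± 0.626 (adjusted p = 0.674). Another gene ID with no name holds the same value in every library, as if shared reads had been divided equally. With both IDs summed, none of the 4 comparisons was called (adjusted p = 0.155 to 0.591).

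LGALS4 (chr19:38801671-38813364, minus strand) also has such an unnamed ID of identical counts. Its own counts were 6.82 and 5.27 in untreated WT, 0 and 0 in treated WT, 0.5 and 3.17 in untreated KI and 3.07 and 1.52 in treated KI libraries. Summed with its unnamed ID it held 13.63 and 10.55 counts in untreated WT and 0 and 0 in treated WT libraries. That is at least 4.88-fold lower with treatment against a floor of 3 counts per library. The sum passed the low-count filter only through the untreated WT libraries, and the summing was added after seeing the data. Its test (adjusted p = 0.0151, edgeR) was thus favoured by the filter and is no support for a fall. Both untreated WT libraries carry plasma cell transcripts at 314.3 and 345.7 CPM and both treated ones do not, and the part of this in the LGALS4 counts was not tested. VIL1 (chr2:218419092-218453295, plus strand) had 1 count in replicate 1 of treated WT, 2 and 4.02 in treated KI, and none in the 5 remaining libraries. Its exons overlap those of USP37, a gene on the opposite strand.

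Per kilobase of the longest annotated transcript, KLF5 led the 10 genes in untreated WT (4.95 CPM per kb), untreated KI (7.55) and treated KI cells (9.9). In treated WT cells KLF4 (5.99) and KLF5 (5.69) overlapped at the top. CDX2 (1.21), KRT20 (1.07, both IDs), GATA6 (0.784) and HNF4A (0.688) followed KLF4 in untreated WT, and no neighbours among these 4 were separated. In untreated KI, MUC13 (2.06), KRT20 (1.92) and HNF4A (1.88) overlapped behind KLF5, ahead of KLF4 (1.05). In treated KI, HNF4A (3.72), KLF4 (3.19) and MUC13 (2.96) did so, ahead of GATA6 (2.14) and CDX2 (1.41). MUC13 was thus the eighth and the seventh of the 10 in untreated and treated WT, and the second and the fourth in untreated and treated KI.

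**Figure D2:**
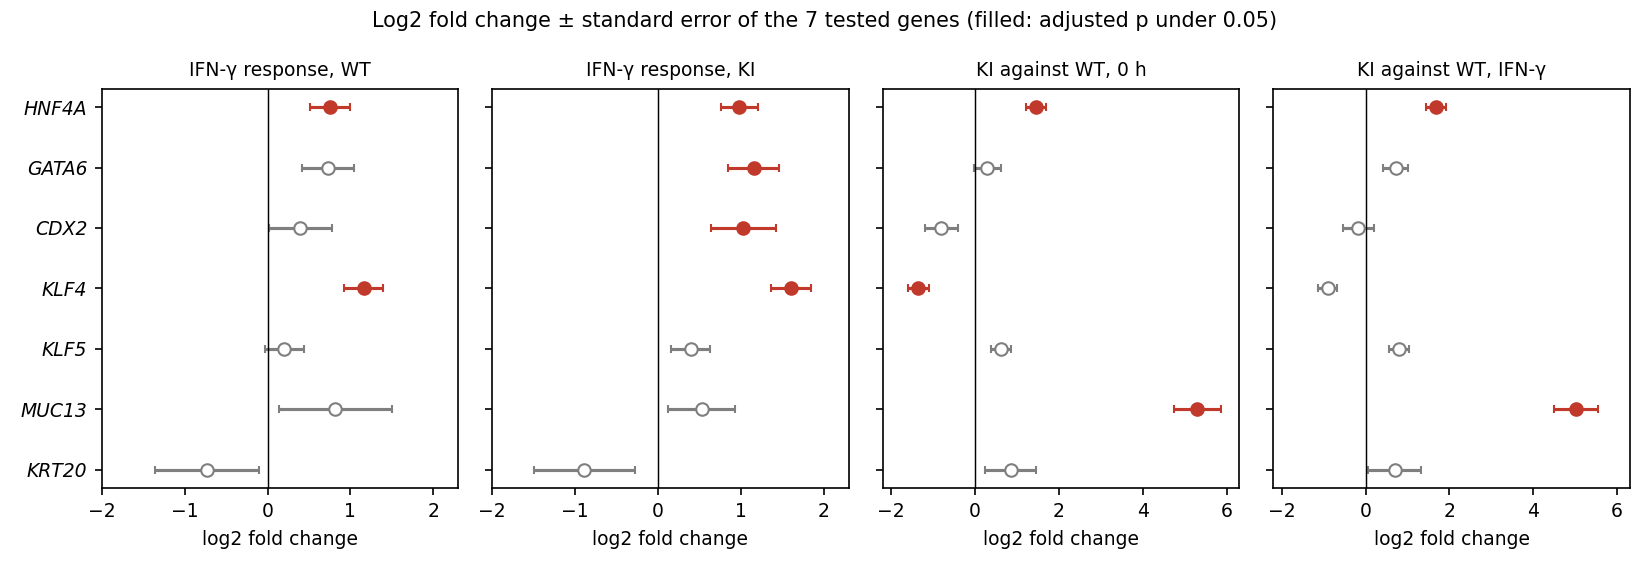
Log2 fold changes (x axis) of the 7 tested genes in 4 comparisons, one per panel, with bars of ± 1 standard error and filled points where the adjusted p was under 0.05 (edgeR, 2 libraries per group). MUC13 stands at 5.30 and 5.01 in the line comparisons, and KLF4 has the highest value in both IFN-γ panels, at 1.16 and 1.60.

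As a group, 4 of the 7 tested members rose with IFN-γ in KI (KLF4, GATA6, CDX2, HNF4A) and none fell, where 52.1% of all tested genes were called, 26.4% higher and 25.8% lower. In WT 2 of 7 rose (KLF4, HNF4A) and none fell, where 37.9% of all genes were called, 17.1% higher and 20.8% lower. The median member change was 0.98 in KI and 0.73 in WT on the log2 scale, beside 0.12 and 0.08 over all tested genes. With the GC and length trend removed the member median was 0.42 in KI and 0.19 in WT, beside 0.02 for all genes in each, and with ERCC scaling it was 0.45 and -0.08, beside -0.41 and -0.72. Treated and untreated libraries did not overlap for 7 of 7 members in KI and 3 of 7 in WT, where 78.9% and 69.6% of all genes did not. Between the untreated lines 2 of 7 were higher in KI (MUC13, HNF4A) and 1 lower (KLF4), where 8.43% of all genes were called, 4.26% higher and 4.17% lower. With IFN-γ 2 of 7 were higher (MUC13, HNF4A) and none lower, where 2.91% were called, 1.63% higher and 1.28% lower. The lines did not overlap for 7 of 7 members without and 6 of 7 with treatment, beside 50.6% and 57.7% of all genes. MUC13 passed the count filter only through its KI libraries. With only the WT groups fitted, 6 members were tested and MUC13 was not among them. Its place in these line counts was thus favoured by the filter and is no support for the set. The comparisons share libraries pairwise, so their counts are not independent of each other.

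The difference between the responses of the lines was not called for any member. Its size (KI minus WT response, log2) ran from -0.29 ± 0.756 for MUC13 (adjusted p = 0.919) to 0.63 ± 0.539 for CDX2 (adjusted p = 0.731). KLF4 stood at 0.44 ± 0.335 (adjusted p = 0.713) and HNF4A at 0.23 ± 0.33 (adjusted p = 0.841). Over all genes edgeR called 0, with 1119 (6.77%) at an unadjusted p under 0.05, none of them a member. DESeq2 called 4 genes, limma-voom 0 and edgeR with no filter 267, again none of them a member. A p-value that misses the threshold does not show that the responses were alike.

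The members' rises with IFN-γ depended on how the libraries were scaled, and the line differences of MUC13 less so. CDX2, GATA6, KLF4 and HNF4A have transcripts of 52.8 to 56.4% GC, above the library means. Once the dependence of each library's counts on GC content and transcript length was removed, the KI rise was 1.06 for KLF4 (adjusted p = 0.00541), 0.42 for GATA6 (adjusted p = 0.301), 0.20 for CDX2 (adjusted p = 0.696) and 0.17 for HNF4A (adjusted p = 0.509). In WT, KLF4 rose by 0.81 (adjusted p = 0.0196) and HNF4A stood at 0.19 (adjusted p = 0.501). Thus KLF4 was the one member called in both lines, where 4107 of 16519 genes were called in WT and 5109 in KI. The line differences barely moved: untreated, MUC13 stood at 5.15 (adjusted p = 0.000443), HNF4A at 1.65 (adjusted p = 0.000546) and KLF4 at -1.24 (adjusted p = 0.00709). With IFN-γ, KLF4 was then called lower in KI as well (-0.99, adjusted p = 0.0202).

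Scaling to the ERCC spike-ins instead moved the median of all genes to -0.72 in the WT and -0.41 in the KI response, and the called genes split into 233 higher and 6745 lower in WT (2821 and 3435 with TMM) and 616 and 5476 in KI (4356 and 4257). On that scale KLF4 rose in KI (1.07, adjusted p = 0.0293), but in WT stood at 0.34 (adjusted p = 0.444). Both values lie above the shifted medians, as do those of HNF4A, GATA6 and CDX2 that follow. HNF4A stood at -0.08 in WT (adjusted p = 0.885) and 0.45 in KI (adjusted p = 0.337), GATA6 at 0.62 (adjusted p = 0.28) and CDX2 at 0.50 (adjusted p = 0.477) in KI. Between untreated lines the median of all genes became -0.35, where MUC13 stayed called at 5.02 (adjusted p = 0.00284) and KLF4 at -1.70 (adjusted p = 0.0329), while HNF4A stood at 1.08 (adjusted p = 0.0905). With IFN-γ MUC13 was at 4.99 (adjusted p = 0.00286) and HNF4A at 1.62 (adjusted p = 0.0694).

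**Figure D3:**
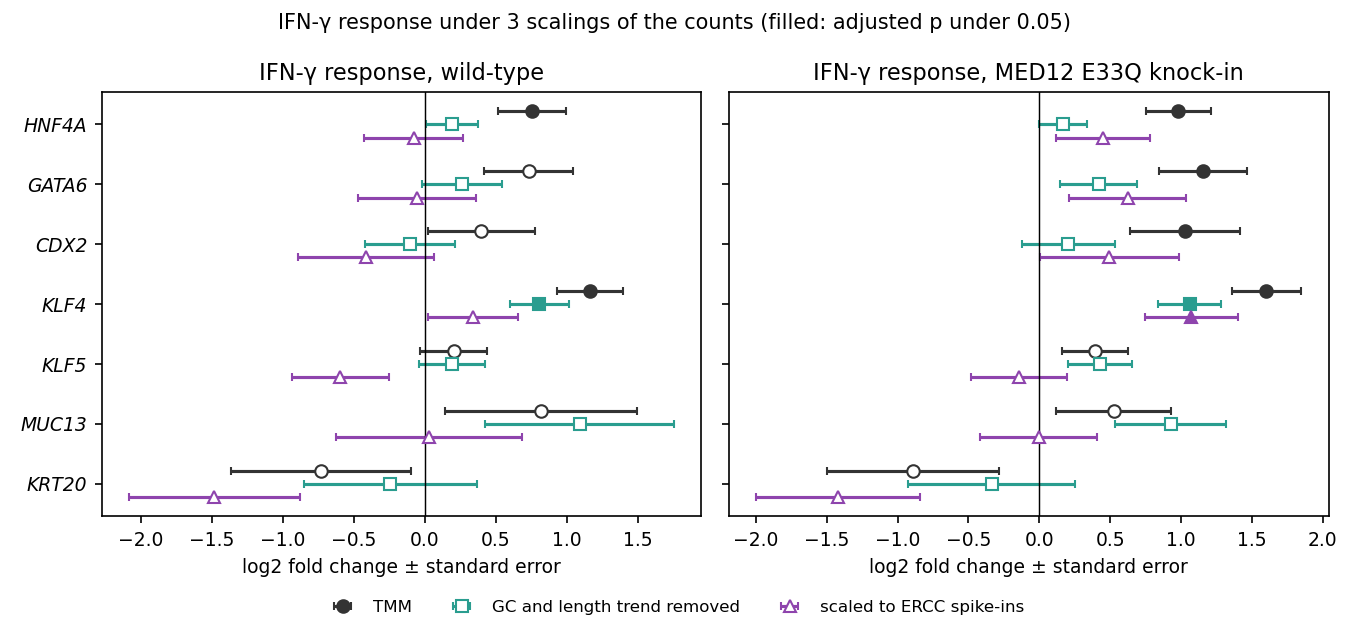
IFN-γ response (x axis: log2 fold change ± standard error) of the 7 tested genes in WT (left) and KI cells (right) with TMM scaling (circles), with the GC and length trend removed (squares) and with scaling to ERCC spike-ins (triangles), filled where the adjusted p was under 0.05. KLF4 in KI cells is filled for all 3, at 1.60, 1.06 and 1.07, whereas HNF4A is filled with TMM alone.

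Restricted to the 4 libraries without plasma cell transcripts, KI cells (1 library per group, assumed to vary like the treated WT pair) showed rises of 1.81 for KLF4 (adjusted p = 0.000666) and 0.95 for HNF4A (adjusted p = 0.0126). GATA6 stood at 1.09 (adjusted p = 0.0742) and CDX2 at 0.60 (adjusted p = 0.321). The line difference with IFN-γ was 5.10 for MUC13 (adjusted p = 0.000653) and 1.76 for HNF4A (adjusted p = 0.00115), as large as with all libraries. No untreated WT library lacks these transcripts, so the WT response and the untreated line difference have no such value.

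Other genes of the intestinal programme were counted from lists of general knowledge, chosen with earlier results of these data known. Over all tested genes 8.43% were called between untreated and 2.91% between treated lines. Among 18 tested of 30 further intestinal transcription factors, 1 was higher and 2 lower in untreated KI cells. HNF4G, the close paralog of HNF4A, was the one higher, with 4.83 and 8.47 CPM in untreated WT and 14.8 and 14.3 CPM in untreated KI libraries (log2 1.13 ± 0.252, adjusted p = 0.0282, not called with ERCC scaling at 0.0701). EHF, an epithelial ETS factor, held 152.9 and 193.8 CPM in untreated WT and 83.4 and 75 CPM in untreated KI libraries (-1.13 ± 0.144, adjusted p = 0.00261). The Wnt effector TCF7L2 was also lower (-0.74 ± 0.174, adjusted p = 0.0336). With IFN-γ EHF (-1.73 ± 0.148, adjusted p = 0.000356) and TCF7L2 (-0.95 ± 0.172, adjusted p = 0.0201) were lower in KI, and the Notch target HES1 was higher (1.27 ± 0.268, adjusted p = 0.039). EHF held 121.4 and 119.2 CPM in treated WT and 35.8 and 36.6 CPM in treated KI libraries, so the lines did not overlap. EHF kept both calls with each library left out. The others lost theirs with a library left out, where the highest adjusted p was 0.112 for HNF4G and 0.174 for untreated TCF7L2 (both without KI_0h replicate 2), 0.252 for treated TCF7L2 (without KI_24h replicate 2) and 0.295 for HES1 (without WT_24h replicate 2). In response to IFN-γ 3 of the 18 rose and 2 fell in WT, and 6 rose and 2 fell in KI. Over all tested genes 37.9% and 52.1% were called in these responses. With the GC and length trend removed 4 of the 18 rose and 0 fell in WT, and 3 and 1 in KI. Between untreated lines 3 were then higher and 4 lower, and between treated lines 3 and 3. Of all 16519 tested genes this setting called 4107 in the WT and 5109 in the KI response. It called 2426 between untreated and 1337 between treated lines. ERCC scaling left 1 rise and 4 falls in WT, 1 and 2 in KI, and 1 lower gene (EHF) in each line comparison. All genes called with it were 6978, 6092, 667 and 195 in the same order. BCL6, a transcriptional repressor, led the rises in both lines (1.74 ± 0.2 in WT, adjusted p = 0.000494; 1.65 ± 0.2 in KI, adjusted p = 0.000255).

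Of 19 tested of 45 brush border and enterocyte genes, EPS8, an actin-capping protein of microvilli, was the one called between untreated lines (0.53 ± 0.115, adjusted p = 0.0257, and 0.145 without KI_0h replicate 2), and none was called with IFN-γ, where 8.43% and 2.91% of all genes were called. With the GC and length trend removed 3 were higher and 2 lower untreated and 1 higher and 3 lower treated, and with ERCC scaling none was called. Of all 16519 genes 2426 and 1337 were called between the lines with the trend removed, and 667 and 195 with ERCC scaling. In response to IFN-γ 3 rose and 4 fell in WT, and 3 rose and 6 fell in KI, where 37.9% and 52.1% of all genes were called. CEACAM1, a cell adhesion molecule, rose by 3.67 ± 0.409 in WT (adjusted p = 0.000463) and 2.66 ± 0.371 in KI (adjusted p = 0.000422). The microvillus actin bundler PLS1 fell by 1.14 and 1.52 on the log2 scale (adjusted p = 0.00184 and 0.000286), and LGALS3, a galectin like LGALS4, fell by 1.42 and 1.23 (adjusted p = 0.00063 and 0.000505). With the GC and length trend removed PLS1 stood at -0.34 and -0.43 (adjusted p = 0.0407 and 0.0117), and with ERCC scaling at -1.91 and -2.05. Of the 19 genes 2 rose and 3 fell in WT and 1 and 4 in KI with the trend removed. ERCC scaling left 1 rise and 6 falls in WT and 1 and 7 in KI. All genes called in these responses were 4107 and 5109 of 16519 with the trend removed, and 6978 and 6092 with ERCC scaling. Of 29 tested of 30 simple keratins and junction genes, 13 rose and 1 fell in WT and 16 rose and 5 fell in KI, among them KRT18, a keratin of simple epithelia, at 1.17 ± 0.156 in WT (adjusted p = 0.000771). Between the lines 4 were higher and 3 lower in KI without treatment, and 1 higher and 4 lower with it. With the GC and length trend removed 8 rose and 2 fell in WT and 6 rose and 3 fell in KI, and 5 were higher and 7 lower between untreated and 4 and 8 between treated lines. Scaling to the ERCC spike-ins left 1 rise and 8 falls among these genes in WT and 0 and 7 in KI, and 1 higher and 1 lower between untreated and none between treated lines. All genes called at these settings were as given above for the brush border genes.

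Of all tested genes 8.43% were called between untreated and 2.91% between treated lines. Among 17 tested of 20 stem and progenitor genes, PROM1, the membrane glycoprotein known as CD133, was the one called between the lines. It held 43 and 62.6 CPM in untreated WT and 33.1 and 27.6 CPM in treated WT, against 1.5 and 1.52 CPM in untreated KI and 0.55 and 0.758 CPM in treated KI libraries. The difference of -5.12 ± 0.265 without treatment (adjusted p = 1.56e-05) and -5.53 ± 0.283 with IFN-γ (adjusted p = 2.08e-05) was similar in size to that of MUC13 and of opposite sign. With IFN-γ 3 of the 17 rose and 4 fell in WT, and 8 rose and 4 fell in KI, where 37.9% and 52.1% of all genes were called. The rises depended on the scaling: 1 rose and 2 fell in WT and 1 rose and 3 fell in KI with the GC and length trend removed, and 0 rose and 6 fell in WT and 0 rose and 5 fell in KI with ERCC scaling. Removing the trend also gave 1 higher and 2 lower between untreated and 1 and 1 between treated lines. Of all 16519 genes 4107 in the WT and 5109 in the KI response were called with the trend removed, and 6978 and 6092 with ERCC scaling. Between the lines 2426 untreated and 1337 treated were called with the trend removed. Among the falls, LGR4, a receptor of R-spondins, fell by 0.94 on the log2 scale in WT (adjusted p = 0.00261) and by 1.37 in KI (adjusted p = 0.000268).

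**Figure D4:**
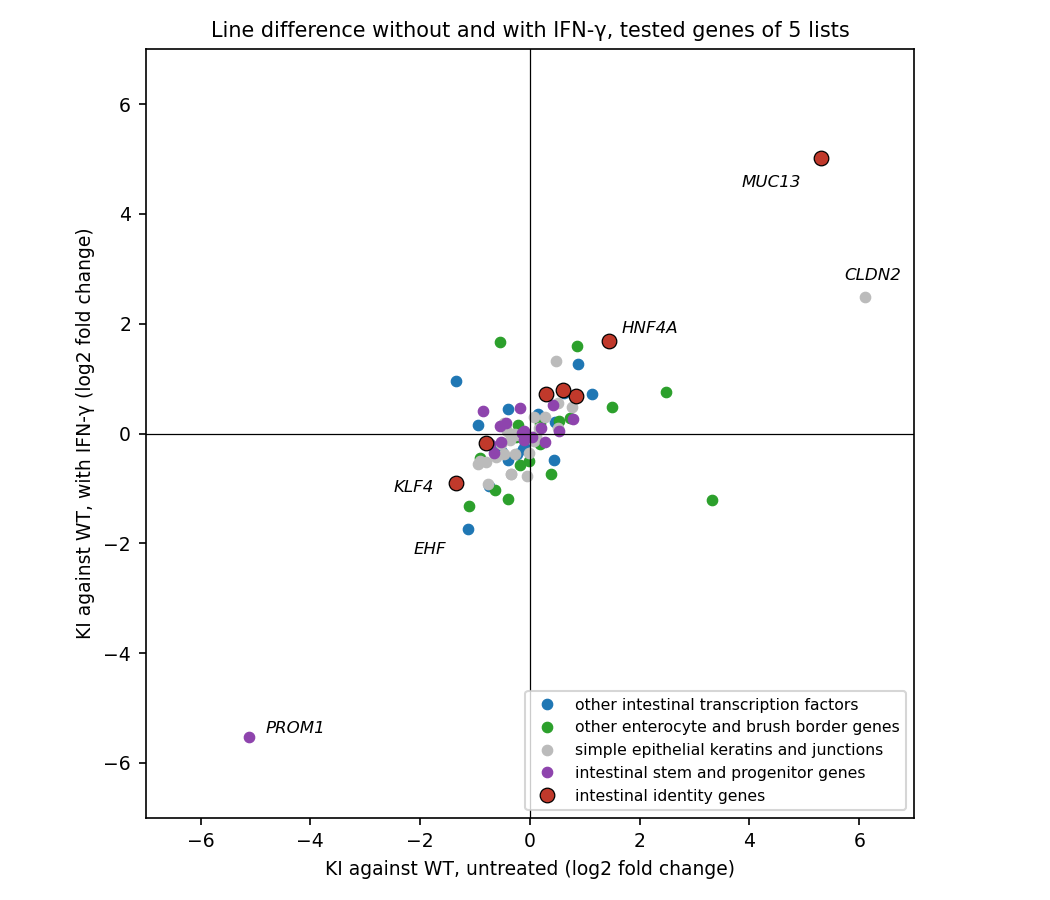
Line difference without treatment (x axis) and with IFN-γ (y axis), each as the log2 fold change of KI against WT, for tested genes of the identity set and 4 further lists (colours), with lines at 0. MUC13 lies at 5.30 and 5.01 and PROM1 at -5.12 and -5.53, while most genes lie near 0; points of genes with almost no counts in one line, such as CLDN2, have loosely set positions.

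Over all tested genes 4.26% were higher and 4.17% lower in untreated KI cells, and 1.63% and 1.28% with IFN-γ. Fibroblasts and smooth muscle are cell types other than colon epithelium. Of 10 tested of their 14 markers, 3 were higher in KI untreated and 1 (TAGLN) with IFN-γ, and none was lower. The 14 genes summed to 11.6 to 17.1 CPM in WT and 29 to 37.1 CPM in KI libraries, with 3 to 5 of the 14 at 0 in a library, and their part in the line differences above was not tested. TAGLN, an actin-binding protein of smooth muscle, made up most of the difference (5.74 ± 0.397 CPM in untreated WT and 21.3 ± 5.11 CPM in untreated KI, SD, n = 2; log2 1.89 ± 0.212 SE, adjusted p = 0.00139, edgeR). The 18 plasma cell markers summed to 405.4 and 444.3 CPM in untreated WT and 14.3 and 389.7 CPM in untreated KI. The part of plasma cell transcripts in the untreated line differences of HNF4A, MUC13 and KLF4 was not tested beyond leaving out each library.

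Across the 8 libraries the members fell into patterns that follow the groups, so correlations only describe shared order, over libraries whose base composition and spike-in share also go with treatment. HNF4A levels went with those of KLF5 (Pearson r = 0.922 of log2 CPM, n = 8 libraries), MUC13 (0.872) and GATA6 (0.824). KRT20 ran against KLF4 (-0.892) and CDX2 (-0.843), while CDX2 went with KLF4 (0.808). Among tested genes with at least 5 CPM on average, MUC13 was most like ITGB8, an integrin chain (r = 0.989), followed by PIMREG and PDLIM5 (0.98 each). ITGB8 held 8.73 and 10.8 CPM in untreated WT and 11.6 and 11.5 CPM in treated WT, against 73.1 and 57.5 CPM in untreated KI and 74.3 and 66.9 CPM in treated KI libraries. HNF4A was most like TNFSF12, TINAGL1 and VASP (r = 0.99 each), and KLF4 most like AKAP17A, KLHL18 and AP5S1 (r = 0.996 to 0.991). For GATA6 these were DNMBP, CEP68 and PCGF3 (0.99 each), for CDX2 AC005726.1, NELFA and TMEM201 (0.99 to 0.98), for KLF5 PXDC1, RPS6KA2 and SYNE3 (0.97 to 0.96) and for KRT20 TFDP2, CIR1 and ZNF613 (0.99 to 0.98).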

How the data were processed

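Ribosomal RNA-depleted total RNA of 8 libraries was analysed. Per the submitters' processing notes, the authors used Trimmomatic, kallisto and GRCh38 (versions, annotation and strand setting: not given in the sources used here). Values deposited by the authors are estimated counts per Ensembl gene ID (40295 IDs, 63 ERCC spike-ins; 58.3% of nonzero values are not whole numbers, tolerance 1e-06). Symbols, positions and lengths came from GENCODE release 29 (35583 IDs named), and promoters from RefSeq (GRCh38.p14).

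Estimated counts were rounded to whole numbers. Genes were filtered with filterByExpr (minimum count 10), scaled by TMM (factors 0.8604 to 1.134) and tested in R 4.3.3 with edgeR 4.0.16 (the quasi-likelihood test, group as the one factor, all 8 libraries, Benjamini-Hochberg adjustment over 16519 genes, threshold 0.05). The common dispersion was 0.0415, a biological coefficient of variation of 20.4%. Spike-ins stayed out of tests. CPM are computed from the counts and TMM factors, and ± marks the SE of a log2 fold change unless SD is written. The fit was tested on simulated data with planted changes. The members and gene lists were chosen with earlier results of these data known. Named from each list and comparison were at most 3 called genes with the largest change whose mean reached 5 CPM in either group, and for each member the 3 genes of highest Pearson r.

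Alternatives were DESeq2 size factors, upper-quartile and ERCC scaling, DESeq2 1.42.0, limma-voom (limma 3.58.1), no filter, at least 50 counts in 2 libraries, a replicate block, only the groups compared, removal of the dependence on GC content and length (loess, span 0.3; GC content known for 92.4% of tested genes), each library left out, and only libraries with under 10 CPM of plasma cell transcripts. Summing KRT20 and LGALS4 with their unnamed IDs was added after seeing the data.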

Additional observations from a re-analysis of the deposited data

How the results depend on the processing

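Of 666 member fold changes under alternatives, 598 kept direction and side of the threshold, 33 lost a call, 14 gained one and 21 changed sign. These include fold changes that were not called to begin with. Among calls, HNF4A in the WT response was kept in 11 of 19 alternatives and CDX2 in the KI response in 10 of 20. Both line differences of MUC13 were kept in all. Of 96 counts of called members, 77 were within 1.5 times the value given, among them counts for the difference of responses, given as 0. Leaving out libraries or groups leaves fewer samples, and the cause of these changes was not tested.

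In the KI response 4 members were called, against 1 with ERCC scaling, 1 with the GC and length trend removed, 2 with libraries free of plasma cell transcripts, and 2 to 4 with each library left out (2 without KI_0h replicate 2 and 2 without KI_24h replicate 1). In the WT response 2 were called, against 0 with ERCC scaling, 1 with the GC trend removed, 1 with only the groups compared and 1 to 2 with a library left out. Between the treated lines 2 were called, against 4 with DESeq2, 4 with no filter, 4 with only the groups compared, 1 with ERCC scaling and 1 to 3 with a library left out (1 without WT_24h replicate 2 or KI_24h replicate 1). Over all genes the number called ranged from 3266 to 7796 in the WT response, 5109 to 9322 in the KI response, 406 to 4815 between untreated and 147 to 2427 between treated lines, beside 6256, 8613, 1392 and 481 with the settings of the report.

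With the replicate number as a block, 4 members were called in the KI response, 2 in the WT response, 4 between untreated lines, 3 between treated lines and 0 for the difference of responses; KLF5 was added in both line comparisons (0.61, adjusted p = 0.0383, and 0.82, adjusted p = 0.0236). Deviations of same-numbered libraries correlated at 0.014 in WT and 0.27 in KI and at -0.002 to 0.074 between other groups. In KI, replicate 2 of each group carried plasma cell transcripts (303.4 and 238.3 CPM, beside 0.0557 and 0.33 in replicate 1). The numbers were not taken to pair the samples, although these values do not exclude a pairing in KI.

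Sign changed with ERCC scaling for the WT response of CDX2 (-0.41), GATA6 (-0.058), HNF4A (-0.080) and KLF5 (-0.60), the KI response of KLF5 (-0.14) and MUC13 (-0.0053), the untreated line difference of GATA6 (-0.054) and the difference of responses of KRT20 (0.063). With the GC trend removed it changed for the WT response of CDX2 (-0.11) and the difference of responses of HNF4A (-0.020). With a library left out, values ranged from -0.46 to 0.19 for CDX2 between treated lines, and in the WT response from -0.12 to 0.46 for KLF5, -1.31 to 0.0062 for KRT20 and -0.32 to 1.46 for MUC13. For the difference of responses they ranged from -0.16 to 0.54 for HNF4A, -0.071 to 0.51 for KLF5, -0.90 to 0.35 for KRT20 and -0.94 to 0.84 for MUC13.

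With 2 libraries per group, low counts limit MUC13 in WT, KRT20, LGALS4, VIL1 and CDX1 most.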

Other observations

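Secretory genes of the intestine were barely present. Of 26 goblet and secretory genes, 6 were tested and 12 to 16 were at 0 in a library, and their summed level was 2.5 to 8.98 CPM. In response to IFN-γ 2 of the 6 rose in WT and 3 in KI, and none fell. Over all tested genes 37.9% and 52.1% were called in these responses. Between the lines none of the 6 was called, beside 8.43% of all genes untreated and 2.91% treated. With the GC and length trend removed 1 of the 6 was called in the WT response and 0 in the KI response. Of all 16519 genes 4107 and 5109 were then called in these responses.

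CLDN2, a pore-forming tight junction protein, was singled out after its values were seen. It held 0 and 0.0501 CPM in untreated WT, 0.305 and 0.98 CPM in treated WT, 2.12 and 1.93 CPM in untreated KI and 3.48 and 3.79 CPM in treated KI libraries. KI libraries lay above WT libraries in both conditions, where the lines did not overlap for 50.6% of all genes untreated and 57.7% with IFN-γ. CLDN2 passed the count filter through the KI libraries, where it was high. Its tests (adjusted p = 0.00667 without and 0.0816 with IFN-γ, edgeR) are thus no support for a line difference. No fold is given because untreated WT rests on 1 count.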
